A study of Tremella fuciformis and Annulohypoxylon stygium and Tremella fuciformis
Annulohypoxylon stygium with 5 samples.

Results

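Annulohypoxylon stygium is a wood-rotting ascomycete that accompanies the white jelly fungus Tremella fuciformis in nature and in cultivation, and its transcript levels after contact with that partner were compared with those of A. stygium grown alone. Of 42507 assembled unigenes (de novo assembled transcript sequences), 18667 were taken as A. stygium by their FPKM (fragments per kilobase, made relative to the size of each library). The larger value in its own 2 libraries had to reach 1 and to exceed the larger T. fuciformis value at least 10-fold. Summing the A. stygium contigs of each assembly cluster (CL names) gave 12770 genes, of which 6576 carried a SwissProt name, 4250 different names in all. The series held 5 libraries with 1 library per condition, all from mycelia of wild-type strains. The A. stygium mycelia grown alone were 1 week old. The interacting A. stygium mycelia were taken 1 week after they met T. fuciformis. The labels do not state how old these mycelia were in all, and age cannot be told apart from interaction. T. fuciformis alone at 2 weeks and T. fuciformis 1 week after interaction served to assign unigenes to a fungus, and the library of dual mycelia was not used. With 1 library per condition no test was possible, and every difference below is a difference between 2 libraries.

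A. stygium feeds on wood by secreting hydrolases and oxidases that open cellulose, hemicellulose and pectin, and T. fuciformis, which breaks down wood poorly, is thought to live on what its companion releases. In ascomycetes the genes for such enzymes are usually held down by easily used sugars and raised when a polymer is the carbon source. Genes for uptake of copper, iron and phosphate are likewise known to respond to the supply of the nutrient in many fungi. Filamentous ascomycetes also carry many polyketide synthases, peptide synthetases and cytochrome P450 enzymes that build pigments, toxins and signals, and HET-domain genes that control fusion between unlike hyphae.

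The A. stygium unigenes held 98.9% of the summed FPKM in the library grown alone and 99.0% in the library after interaction. Levels are given below as rescaled FPKM, meaning that the values of the A. stygium unigenes were multiplied by 1.93 in the library alone and by 1.85 in the library after interaction so that they sum to 1e6 in each. The log2 ratio was taken after over alone, with 1 added to each rescaled value, which understates the ratio of genes with low values. The median log2 ratio was -0.12 over all genes and -0.11 over genes with a SwissProt name, so list medians are read against -0.11. Unigenes whose nucleotide hit names ribosomal RNA took 1.13% of the A. stygium FPKM alone and 1.63% after interaction, and the part of this difference in the results was not tested. No read counts were used here and the depth is unknown. Of 1084 unigenes with 0.3 to 1 FPKM in both libraries, 57.8% had ratios within 2% of a ratio of whole numbers up to 4, against 15.8% of 3192 unigenes with 10 to 30 FPKM. The lowest values therefore came in steps, and ratios at that level rest on few fragments.

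Most genes had nearly the same level in both libraries: 10627 of 12770 lay within 2-fold. At least 2-fold higher after interaction were 1039 genes, a background of 8.14%, and at least 2-fold lower were 1104, or 8.65%. Past 4-fold the counts were 286 higher (2.24%) and 293 lower (2.29%), and 191 and 241 of these were listed at 0 in the library with the lower value. Of the genes past 4-fold 49.4% were higher, and this share moved with the scaling. On deposited FPKM with a pseudocount of the same weight the counts were 307 and 280, or 52.3% higher, and with the median set to 0 they were 347 and 235, or 59.6%. On deposited FPKM with a pseudocount of 1, which there weighs more against the levels, they were 115 and 71, or 61.8%. The balance differed by level. Among genes whose larger deposited value was 1 to 3 FPKM, 161 were at least 4-fold higher and 208 lower, and 877 of the 3178 genes in that class were listed at 0 in 1 of the libraries. Among genes of 30 to 100 FPKM, 33 were higher and 6 lower, and of 100 FPKM and over, 12 were higher and 3 lower. Where the nearest Nr hit names a genus, it was one of Tremellomycetes, the class of T. fuciformis, for 4.44% of 135 genes past 4-fold higher and 13.6% of 88 past 4-fold lower, against 0.709% of 9726 genes in all. The part of these genes in the counts was not tested.

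**Figure D1:**
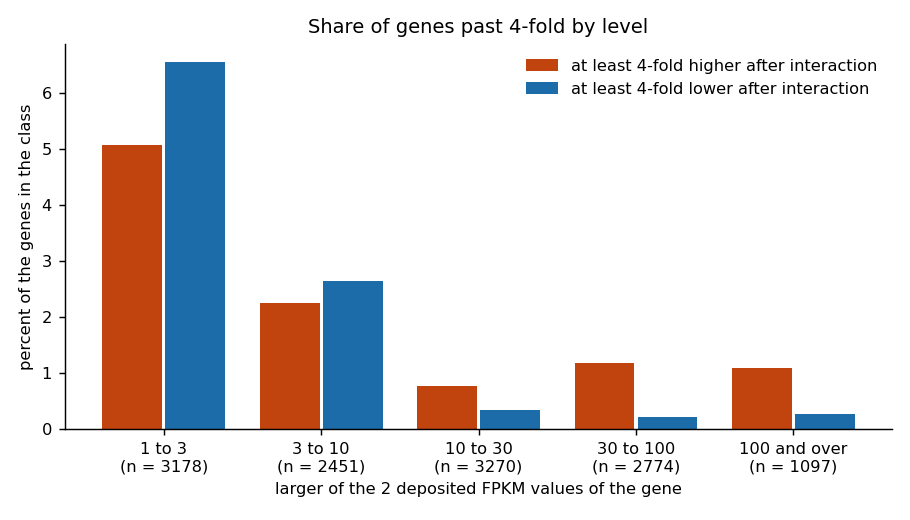
Bars give the percent of A. stygium genes at least 4-fold higher (red) or lower (blue) after interaction, by the larger of the deposited FPKM values of the gene, with the number of genes in each class under it. The shares were 5.07% and 6.55% at 1 to 3 FPKM and 1.09% and 0.273% at 100 FPKM and over.

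Genes with a SwissProt name were more often higher than lower past both folds. At least 2-fold higher were 276 of 6576 (4.20%) and at least 2-fold lower were 210 (3.19%). Past 4-fold these counts were 74 (1.13%) and 29 (0.441%). Among the 5190 named genes that reached 10 FPKM in 1 of the libraries, 160 were at least 2-fold higher (3.08%) and 78 lower (1.50%), while past 4-fold the counts were 46 (0.886%) and 3 (0.0578%). List counts below use the 2-fold limit, and their background is thus 4.20% higher and 3.19% lower. The 74 named genes past 4-fold higher had at most 0.69 FPKM in either T. fuciformis library, where the assignment rule itself keeps values low. Of these 74, 45 (60.8%) were listed at 0 in both T. fuciformis libraries. The share was 64.2% over all 12770 genes, and 28 of 29 among named genes past 4-fold lower.

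**Figure D2:**
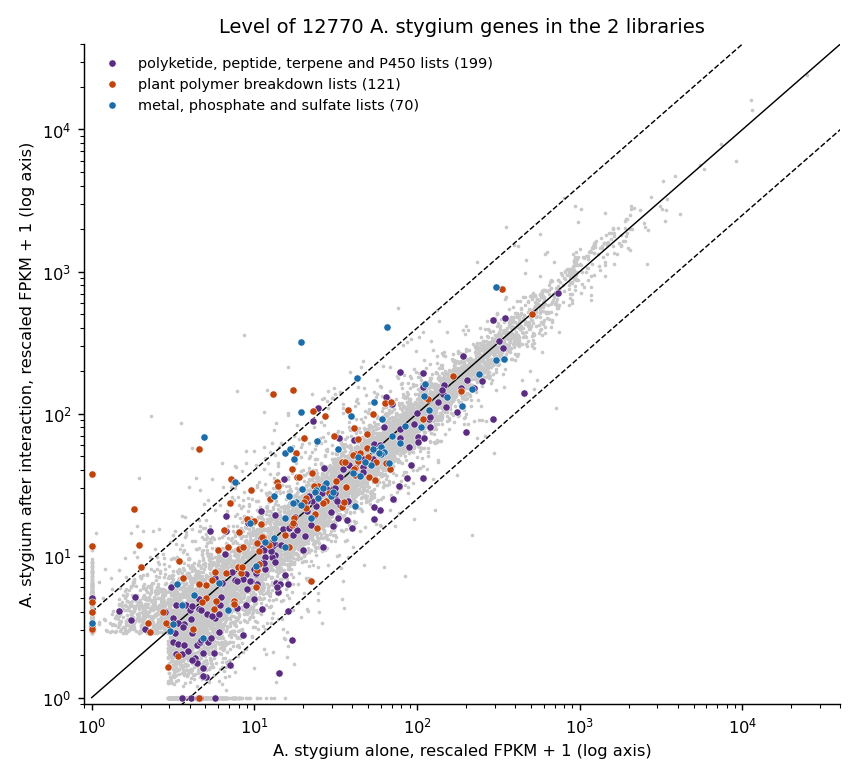
Each grey point is 1 of 12770 A. stygium genes, by its level alone (x axis) and after interaction (y axis), in rescaled FPKM + 1 on log axes. Coloured points mark 3 groups of gene lists, the solid line marks equal levels and the dashed lines 4-fold, and plant polymer (red) and nutrient uptake (blue) genes lie above the upper dashed line more often than below the lower one.

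Enzymes that attack cellulose stood apart most plainly in number: 16 of 52 members were at least 2-fold higher after interaction and 0 were 2-fold lower, with a median log2 ratio of 0.35, and 42 of 52 lay above the median of all named genes. Among the 29 members that reached 10 FPKM, 12 were higher and 0 lower. With the contigs of a cluster counted singly, 31 of 94 were higher and 10 lower, and with a pseudocount of 10 the counts were 10 and 0. With unigenes assigned on the library alone, 11 of 45 were higher and 1 lower. The absence of lower members thus depends on the setting. Cellobiohydrolases, which run along a cellulose chain and release cellobiose, numbered 3, and each was higher after interaction. The gene named exoglucanase 1 (cbh-1 of Neurospora crassa, Unigene13451) stood at 21.8 alone and 103 after, a log2 ratio of 2.19. Of the pair named cellobiohydrolase C, Unigene8232 stood at 26.0 and 94.5 (1.82), and CL3188 at 0.810 and 20.4 (3.56). These genes were low alone and of middle level after contact.

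Oxidative enzymes of cellulose breakdown showed the same pattern. Endo-beta-1,4-glucanase D of Aspergillus, the name carried by 10 A. stygium genes, belongs to a family now known as copper-dependent lytic polysaccharide monooxygenases, which cut cellulose by oxidation. Of these 10, 4 were at least 2-fold higher and 0 lower, with a median of 0.57. Unigene8969 stood at 3.55 alone and 55.4 after (3.63), Unigene6149 at 6.21 and 33.4 (2.26), and Unigene16683 was listed at 0 alone and stood at 10.7 after. Cellobiose dehydrogenase, a secreted flavocytochrome that can pass electrons to those monooxygenases, was the name of 8 genes, of which 3 were at least 2-fold higher and 0 lower. Its member Unigene12633 stood at 8.50 and 28.2 (1.62). The most abundant members of the cellulose list differed little or moderately. Endoglucanase EG-1 (Unigene7052) stood at 505 and 501, and beta-glucosidase A (Unigene14051), which splits cellobiose to glucose, at 332 and 748 (1.17). Beta-glucosidases as a group were less uneven, with 3 of 18 higher, 0 lower and a median of 0.11.

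Hemicellulose enzymes counted 44 members, 8 of them 2-fold or more higher and 2 lower, with a median of 0.24. Most of those 8 were low: of the 21 members that reached 10 FPKM, 2 were higher and 1 lower. Feruloyl esterase B-1 (Unigene11058), which frees ferulic acid from arabinoxylan, stood at 12.1 alone and 137 after, a log2 ratio of 3.41. Acetylxylan esterase (axe1 of Hypocrea jecorina, Unigene9015) stood at 0.964 and 10.9 (2.60), and xyloglucanase (Unigene10366) at 1.02 and 7.31 (2.04). An arabinogalactan endo-galactanase (CL7415) stood at 13.0 and 29.8 (1.14). The arabinanase abnA (Unigene4614), which cuts the side chains of pectin, went the other way, with 21.4 alone and 5.63 after (-1.75). The most abundant member, arabinofuranosidase B (Unigene11118), stood at 112 and 128.

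Of 16 pectin enzymes 4 reached 2-fold higher, and of 9 members of the starch and alpha-glucoside list 2. In either list 0 were lower, while the arabinanase abnA above is counted under hemicellulose. Of the 4 pectin genes 2 were listed at 0 alone, and without genes listed at 0 the pectin count was 2 of 14 and the median -0.00064, against 0.22 with them. Pectate lyase D (Unigene14514), which cleaves de-esterified pectin, was listed at 0 alone and stood at 36.8 after interaction. Polygalacturonase 1 (Unigene2638), which hydrolyses the same backbone, stood at 16.2 and 146 (3.09). Rhamnogalacturonan acetylesterase (CL2702) stood at 19.2 and 65.8 (1.72), and pectinesterase (Unigene7674) at 62.5 and 117 (0.90). The most abundant pectin member, rhamnogalacturonate lyase C (Unigene5357), stood at 108 and 90.0 (-0.25). A second gene of that name (Unigene2657) stood at 23.2 and 14.5 (-0.64). D-galacturonate reductase (gar1 of H. jecorina, CL4783), the first enzyme in the use of the sugar acid that pectin releases, belongs to no list and was named after its values were seen; it stood at 31.5 and 74.9 (1.23). In the starch and alpha-glucoside list, alpha-amylase (CL7327) stood at 36.4 and 105 (1.51). Invertase (Unigene5425), which splits sucrose and not a polymer, stood at 29.7 and 67.9 (1.17). The endo-1,3-alpha-glucosidase name agn1 (CL2119) stood at 35.7 and 29.5 (-0.26). With e-values of at most 1e-20, 1 of 8 members was at least 2-fold higher and the median was -0.02. Over the 4 lists of plant polymer breakdown together, invertase and agn1 included, 30 of 121 members (24.8%) were at least 2-fold higher and 2 (1.65%) lower. Their summed level was 3609 alone and 5134 after.

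**Figure D3:**
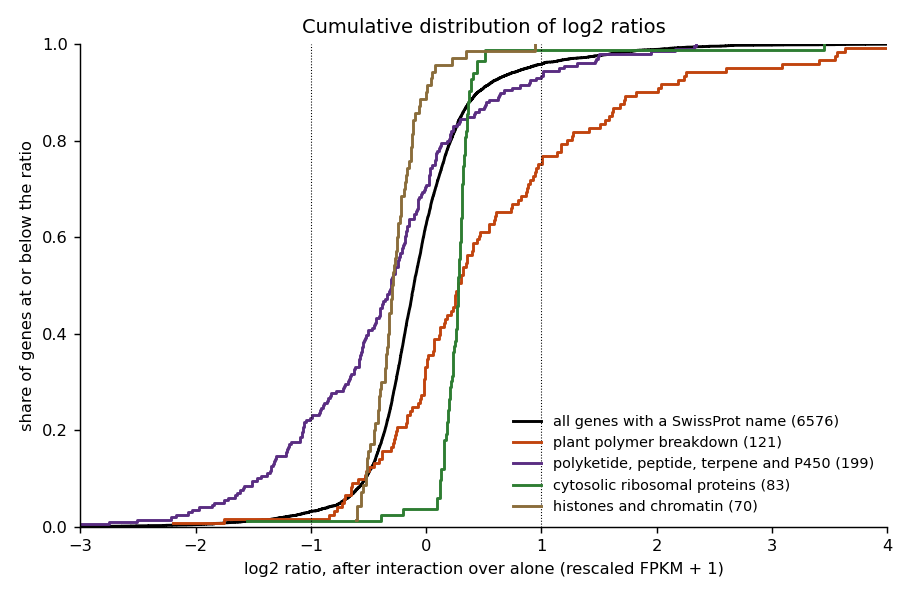
Lines give the share of genes (y axis) at or below each log2 ratio of after interaction over alone (x axis), with the number of genes in brackets and dotted lines at 2-fold. The line of plant polymer enzymes (median 0.28) runs to the right of all named genes (-0.11) with a long upper tail, polyketide, peptide, terpene and P450 genes (-0.31) have a long lower tail, and ribosomal proteins (0.27) and chromatin genes (-0.29) are shifted narrowly.

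Secreted proteases were split between a few genes with large differences and many with small ones. Of 79 genes in the protease list, 11 were 2-fold or more higher and 1 lower, yet its median was 0.01. Alkaline proteinase (Acremonium chrysogenum name, Unigene8818), a secreted subtilisin, stood at 6.77 alone and 144 after, a log2 ratio of 4.23. Neutral protease 2 (Unigene2612), a secreted metalloprotease, stood at 75.7 and 550 (2.85). Aspergillopepsin-2 (CL4249), an acid protease, stood at 21.5 and 135 (2.60). A subtilisin, a metalloprotease and an acid protease were thus each past 4-fold. Among subtilisins 4 of 9 were higher and 0 lower, including the Mp1 name (Unigene5306) at 13.1 and 56.7 (2.04). The most abundant protease, Spm1 (Unigene8278), stood at 928 and 789 (-0.23). Carboxypeptidases and aminopeptidases had 1 of 29 higher and 1 lower, the latter being leucine aminopeptidase 2 (CL1760) at 93.1 and 31.4 (-1.54).

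Secreted nucleases were few, and 3 of 6 were at least 2-fold higher and 0 lower. Guanyl-specific ribonuclease Ms (CL4129), of the RNase T1 type that cuts RNA after guanosine, stood at 15.1 and 213 (3.73). A second enzyme of that type, ribonuclease F1 (CL6541), stood at 10.5 and 57.5 (2.34). Ribonuclease T2 (Unigene1579) stood at 51.5 and 73.4 (0.50), and the more abundant gene named nuclease S1 (Unigene11256) at 45.0 and 45.2. The list of nucleases was drawn up after these values were seen.

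Copper uptake was among the clearest differences. Copper importers of the Ctr family carry reduced copper through the plasma or vacuolar membrane, and all 4 A. stygium genes with these names were higher after interaction, 3 of them at least 2-fold. The gene named ctr4 of Schizosaccharomyces pombe (CL1489) stood at 18.5 alone and 316 after, a log2 ratio of 4.03. The name ctr5 (Unigene6412), whose product in S. pombe forms a complex with Ctr4, stood at 41.5 and 176 (2.06). The name CTR2 of Saccharomyces cerevisiae (CL3721), a vacuolar copper exporter in that yeast, stood at 302 and 776 (1.36). A second ctr4 name (CL1001) stood at 8.43 and 15.9 (0.84). Their summed level was 371 alone and 1284 after.

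Surface reductases supply the reduced metal that such importers need. The gene named FRE7 (Unigene13292), a reductase of copper-starved S. cerevisiae, stood at 64.0 and 406 (2.65), whereas 2 further genes of that name, Unigene12199 and CL1608, stood at 78.0 and 61.5 (-0.34) and at 42.2 and 48.6 (0.20). FRE4 (Unigene6134) stood at 15.5 and 55.6 (1.77). Copper-exporting ATPases, which load copper into secreted enzymes, were the name of 4 genes. Of these, CL1496, named CCC2, stood at 341 and 243 (-0.49), Unigene858 at 47.1 and 44.3, and Unigene833 at 14.5 and 10.5 (-0.44), while Unigene17628 was listed at 0 alone and stood at 2.37 after. Of 12 ferric and cupric reductases in all, 3 were at least 2-fold higher and 0 lower. Of 3 genes named as iron multicopper oxidases 0 were past 2-fold, their ratios running from -0.29 to 0.42. Ornithine monooxygenase (sib2 of S. pombe, Unigene213), which starts siderophore synthesis, stood at 14.5 and 52.0 (1.77). In the whole metal list 8 of 43 were at least 2-fold higher and 0 lower, with a median of 0.05, and with contigs counted singly 22 of 77 were higher and 5 lower.

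Of the phosphate acquisition genes, those past 2-fold were all higher. In the list of phosphate and sulfate genes 7 of 27 were at least 2-fold higher and 0 lower, with a median of 0.25, and all 7 reached 10 FPKM. Phosphate importers accounted for 4 of them, out of 5. The gene named PHO84 (Unigene9708), the high-affinity phosphate importer of S. cerevisiae, stood at 3.88 alone and 67.8 after (3.82). The N. crassa permease name pho-4 (Unigene11893) stood at 6.63 and 31.9 (2.11). Further PHO84 names stood at 38.0 and 95.8 (CL5562, 1.31), at 12.1 and 25.3 (Unigene1951) and at 5.03 and 5.39 (CL4462). Secreted phosphatases free phosphate from organic matter, and 2 of 12 phosphatase and phytase names were at least 2-fold higher: Unigene4724 stood at 18.3 and 102 (2.42) and Unigene4475 at 16.6 and 47.2 (1.46). Endopolyphosphatase (CL2828), which cuts stored polyphosphate, stood at 23.2 and 63.6 (1.41). The most abundant member of the list, glycerophosphodiester phosphodiesterase GDE1 (CL7932), was lower, at 186 and 113 (-0.72). Sulfate names showed 0 of 6 past 2-fold.

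Transporters of sugars and of nitrogen compounds were balanced. Of 65 sugar transporters 5 were at least 2-fold higher and 4 lower, with a median of -0.07, and of 74 carriers of amino acids, peptides and ammonium 5 were higher and 5 lower, with a median of -0.15. Individual genes differed in opposite ways. The gene named SNF3 (Unigene353), a glucose sensor in S. cerevisiae, stood at 17.8 and 65.6 (1.83), and an rco-3 name (CL461) at 24.8 and 86.4 (1.76). The low-affinity glucose transporter RAG1 (Unigene5990) stood at 35.1 and 11.6 (-1.51). Lactose permease (LAC12, Unigene13972), a name that fungal cellobiose and lactose carriers often draw, stood at 0.887 and 15.1 (3.10). Among nitrogen carriers an oligopeptide transporter (CL2691) stood at 12.8 and 36.5 (1.45) and a choline transporter (CL1215) at 34.0 and 13.9 (-1.23). Potassium transporter HAK1 (CL3719), in no list, stood at 66.8 and 144 (1.09).

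Thiamine synthesis held large differences among abundant transcripts. Thiamine is built from a pyrimidine part and a thiazole part. The gene named nmt1 (CL838), whose product makes the pyrimidine precursor and whose S. pombe counterpart is repressed by thiamine, stood at 796 alone and 3283 after, a log2 ratio of 2.04. Thiamine thiazole synthase (CL510), which makes the other part, stood at 1019 and 2760 (1.44). The later steps did not follow. The kinase THI20 (CL2458) stood at 14.1 and 19.5 (0.44). The bifunctional thi4 of S. pombe (Unigene11079), which joins the parts, stood at 56.0 and 51.3. A thiamine transporter name, thi9 (Unigene11533), is no step of synthesis and was low in both libraries, at 3.43 and 1.11 (-1.07). In the whole vitamin list, drawn up after values were seen, 5 of 45 were at least 2-fold higher and 1 lower with a median of 0.12. Its summed level was 4425 alone and 8609 after, and the 5 thiamine names among its members summed to 1889 and 6115.

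Amino acid metabolism had several single differences against a small median of 0.12. Of 66 genes of amino acid synthesis and nitrogen assimilation 4 were at least 2-fold higher and 1 lower. Saccharopine oxidase (fap2 of S. pombe, Unigene2012) stood at 17.3 and 82.1 (2.19). Branched-chain aminotransferase (Unigene11787) stood at 42.1 and 118 (1.46). Glutamine synthetase (CL8133), the most abundant member, stood at 1906 and 1633 (-0.22). Outside the list, and named after their values were seen, were pipecolate oxidase (fap1, CL6547) at 33.8 and 115 (1.74), the branched-chain enzyme dihydroxy-acid dehydratase (ILV3, CL2619) at 19.4 and 52.3 (1.39), and arginase (aga-1, CL3388), which breaks arginine to urea and ornithine, at 120 and 325 (1.43).

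Secondary metabolism leaned the other way. Genes of polyketide and nonribosomal peptide synthesis were at least 2-fold lower in 18 of 69 cases and higher in 4, with a median of -0.40, against a background of 3.19% lower. The difference lay with polyketide synthases, of which 14 of 39 were lower and 1 higher, with a median of -0.62. Peptide synthetases had 4 of 30 lower and 3 higher, with a median of -0.23. Most of these genes were weakly expressed: of the 14 members that reached 10 FPKM, 2 were lower and 1 higher. When unigenes were assigned on the library after interaction, 4 of 51 were lower and 4 higher. That setting drops genes at 0 after interaction by construction, and over all genes it gave 304 lower and 1090 higher of 11651. It therefore cannot decide whether the excess of lower members holds. With a pseudocount of 10 the counts were 2 lower and 1 higher. Polyketide synthases of the wA name, a pigment enzyme of Emericella nidulans spores, numbered 10. Of these, CL138 stood at 58.2 alone and 19.8 after (-1.51), while the more abundant CL3407 stood at 99.7 and 66.1 (-0.58). With unigenes assigned on the library after interaction, the log2 ratio of CL138 was -0.70, within 2-fold. Of lovastatin nonaketide synthase names, CL8037 stood at 85.8 and 34.2 (-1.30) and Unigene10890 at 150 and 111 (-0.43). A peptide synthetase, NRPS13 (CL255), ran against the rest with 23.5 and 108 (2.16). Terpene genes had 4 of 11 lower and 0 higher, none of the 4 reaching 10 FPKM, and the abundant fusicoccadiene synthase name CL115 stood at 184 and 149 (-0.30).

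Cytochrome P450 and related monooxygenases, which add oxygen to such products, were at least 2-fold lower in 23 of 119 cases and higher in 9, with a median of -0.24. Here the balance was present at higher levels too, with 12 of 67 lower and 5 higher among members of at least 10 FPKM, where the background is 1.50% lower and 3.08% higher. The names are those of known toxin and hormone pathways in other fungi and do not say which product A. stygium makes. Tryprostatin B 6-hydroxylase (Unigene5406) stood at 454 and 137 (-1.72), but another gene of that name, CL7092, at 730 and 707. Ent-kaurene oxidase, a gibberellin enzyme of Gibberella, was the name of 11 genes, of which 4 were lower and 0 higher. Its member Unigene13986 stood at 290 and 91.2 (-1.66) and CL2662 at 76.3 and 29.9 (-1.32). Trichodiene oxygenase (CL920) stood at 108 and 34.1 (-1.64), and an averantin hydroxylase name (CL5510) at 53.3 and 21.0 (-1.31). Isotrichodermin hydroxylase names went both ways, with CL878 at 199 and 72.8 (-1.44) and CL6647 at 21.9 and 87.7 (1.95).

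Tailoring enzymes with toxin or pigment names were mixed, 13 of 99 higher and 14 lower with a median of -0.07. Within a name the genes could differ in opposite ways. Versicolorin B synthase, an enzyme of the aflatoxin pathway in Aspergillus, named Unigene263 at 33.5 and 3.98 (-2.79) and CL8207 at 6.31 and 31.5 (2.15). Solanapyrone synthase names had 5 of 25 genes at least 2-fold lower and 0 higher, with Unigene12570 at 494 and 197 (-1.33) and CL7895 at 434 and 506 (0.22). Enzymes named for naphthol reduction in melanin synthesis had no common direction: the abundant tetrahydroxynaphthalene reductase Unigene10587 stood at 231 and 238, and the trihydroxynaphthalene reductase names Unigene8857 and Unigene1830 at 71.6 and 52.5 (-0.44) and at 25.9 and 81.7 (1.62). The list of drug efflux and ABC transporter names had 3 of 32 lower and 2 higher with a median of -0.24. Of these, CDR1 (CL5136), an ABC pump that exports azoles in Candida albicans, stood at 263 and 87.7 (-1.57), and CDR4 (CL108) at 78.7 and 32.7 (-1.24).

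The cell wall and its surface showed small shifts in the bulk and large ones in single genes. Enzymes that cut chitin and 1,3-glucan, which fungi use to remodel their own walls and to attack others, had 3 of 46 lower and 2 higher with a median of -0.25. Endochitinase chit42 (CL7102), named for an enzyme of the mycoparasite Trichoderma harzianum, stood at 582 alone and 270 after (-1.10). Chitin deacetylase (Unigene4448) stood at 1553 and 1852 (0.25), and the glucanase name eglC (Unigene2623) at 1429 and 1108 (-0.37). Of 10 chitin synthases 0 were higher and 1 lower, and all 10 ratios were below 0. The most abundant transcript of A. stygium, trihydrophobin (Unigene10417), a surface protein that makes hyphae water-repellent, was level at 25009 and 24312. A hydrophobin named eas of N. crassa (Unigene13328) stood at 60.4 and 217 (1.83).

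The list of surface and wall protein names held 353 genes, of which 26 were higher and 14 lower with a median of -0.16. It takes in names of yeast adhesins and mannoproteins and also trihydrophobin, its most abundant member. Adhesin and mannoprotein names are often drawn by any serine- and threonine-rich protein, so they describe composition more than function. The most abundant pair of FLO11 names (Unigene97 and Unigene10214) stood at 9093 and 5998 (-0.60) and at 4134 and 2536 (-0.70). Genes named EAP1 (Unigene8882), DAN4 (Unigene10799) and AGA1 (CL1243) stood at 233 and 1166 (2.32), 3.12 and 56.7 (3.81) and 978 and 2249 (1.20). The genes past 2-fold higher thus reached levels of up to 2249, below those of the FLO11 pair.

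Incompatibility proteins, with which filamentous ascomycetes recognise unlike hyphae, were at least 2-fold lower in 9 of 75 cases and higher in 2, with a median of -0.29. Most of those 9 were weakly expressed: of the 31 members that reached 10 FPKM, 2 were lower and 0 higher. Under the alternative settings the count of lower members ran from 1 to 14. They share a small number of names: het-6 of N. crassa named 37 genes (5 lower, 2 higher) and HET-E-1 of Podospora anserina 35 (4 lower, 0 higher). CL3773, with a het-6 name, stood at 43.9 and 13.9 (-1.59). The most abundant members, with HET-E-1 names, stood at 112 and 116 (Unigene1986) and at 94.4 and 74.2 (Unigene2395).

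Of 28 oxidases linked to wood 5 were higher and 2 lower, with a median of -0.14. Among the 11 that reached 10 FPKM, 3 were higher and 0 lower, with a median of -0.19. Laccases, copper enzymes that oxidise phenols, numbered 6, and 2 reached 10 FPKM. Laccase-2 (Unigene8995) stood at 14.3 and 52.4 (1.80), and another laccase-2 name, CL167, at 48.5 and 28.2 (-0.76). The name manganese peroxidase 3 of Phlebia radiata (Unigene14336), a lignin-attacking enzyme in that basidiomycete, stood at 5.34 and 44.2 (2.83). Tyrosinase (CL826), another copper enzyme of phenol oxidation, stood at 21.6 and 52.7 (1.25), and this cluster joins contigs of more than 1 SwissProt name.

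Stress and detoxification genes differed little as groups. Oxidative stress defence had 2 of 32 higher and 0 lower with a median of 0.14, and heat shock proteins and chaperones 1 of 63 and 0 with a median of -0.07. Manganese superoxide dismutase (Unigene7339) stood at 2073 and 2769 (0.42), and Hsp90 (Unigene8786) at 1778 and 1525 (-0.22). Among the 70 genes of aromatic breakdown and detoxification 6 were higher and 3 lower. Flavohemoprotein (YHB1, Unigene14048), which destroys nitric oxide, stood at 132 and 537 (2.02), and glutathione S-transferase names went both ways, with Unigene11327 at 36.4 and 107 (1.53) and Unigene12197 at 55.8 and 23.2 (-1.23). The largest decreases among named genes of at least 10 FPKM were also in this list. The name isp7 (Unigene14536), an oxygenase family protein of S. pombe, stood at 82.9 and 6.20 (-3.54), and an AIM2 family hydrolase name (Unigene9479) at 34.3 and 3.26 (-3.05). Short-chain and aldo-keto reductases had 15 of 139 higher and 6 lower, with a median of 0.07.

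Genes of ribosomes and their assembly were shifted narrowly and in 1 direction. Of 83 cytosolic ribosomal proteins 80 lay above the median of all named genes, with a median log2 ratio of 0.27, while 1 was past 2-fold in each direction and neither reached 10 FPKM. Their summed level was 91822 alone and 110362 after. Large-subunit proteins had a median of 0.27 and small-subunit proteins of 0.28. The most abundant, L41 (Unigene5905), stood at 11462 and 13784. Mitochondrial ribosomal proteins had 44 of 46 above that median (0.19), and factors of ribosome biogenesis 56 of 66 (0.14). Translation factors and tRNA ligases had a smaller median of 0.04, with 57 of 80 above the median of all named genes. Of these 80, 1 was at least 2-fold higher and 4 lower. Elongation factor 1-alpha (Unigene8973) stood at 7370 and 7947 (0.11). Initiation factor 4 gamma was the name of 9 genes with a median of -0.11, of which 2 were at least 2-fold lower and 0 higher. These were Unigene11130 at 206 and 83.6 (-1.29) and Unigene10565 at 84.1 and 37.9 (-1.13), while the highest ratio was 0.48.

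Energy metabolism had a like small shift. Medians were 0.21 for glycolysis and the citric acid cycle and 0.13 for mitochondrial respiration, with 39 of 46 and 65 of 77 members above the median of all named genes. Glyceraldehyde-3-phosphate dehydrogenase (Unigene2990) stood at 3251 and 4314 (0.41) and enolase (Unigene1508) at 3094 and 2894 (-0.10). Alternative oxidase (Unigene4020), which bypasses the proton-pumping complexes, stood at 11.4 and 52.9 (2.11). In the glyoxylate cycle and beta-oxidation 0 of 56 were higher and 1 lower. That gene, isocitrate lyase (acu-3, Unigene3250), which lets cells grow on acetate or fat, stood at 133 and 44.4 (-1.56). Reserve and osmolyte genes (trehalose, glycerol, mannitol and glycogen) had a median of 0.19, with TPS3 (CL6509) of trehalose synthesis at 89.5 and 184 (1.03).

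Regulatory and housekeeping lists lay slightly below the median of all named genes. Histones and chromatin genes had a median of -0.29, with 11 of 70 above the general median, and 0 of 70 past 2-fold in either direction. Histone H3 (CL4141) stood at 3381 and 2701 (-0.32) and H2A (CL4229) at 2522 and 2073 (-0.28). Transcription regulators had a median of -0.27, with 3 of 212 higher and 6 lower. Kinases and signalling genes had a median of -0.23, with 0 of 152 higher and 4 lower, and cell cycle genes also -0.23, with 1 of 131 and 2. Cyclin-dependent kinase 1 (Unigene13496), the kinase that drives division, stood at 50.0 and 24.2 (-1.02). The meiotic factor name NDT80 (CL950) stood at 115 and 55.9 (-1.03). Both Unigene13496 and CL950 came within 2-fold under other settings. With a pseudocount of 10 the ratios were -0.81 and -0.92, and with the median set to 0 they were -0.90 and -0.91.

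A few regulators of carbon, nitrogen, pH and light responses were chosen for their roles after values were seen, and they do not stand for all regulators. The xylanase activator xlnR (CL2078) stood at 31.0 and 27.6 (-0.16). The glucose repressor creA was the name of 2 genes, Unigene9683 at 142 and 192 (0.44) and CL6760 at 63.2 and 41.5 (-0.59). The nitrogen regulator areA (Unigene13221) stood at 35.7 and 27.3 (-0.37), and the pH regulator pacC (Unigene7040) at 397 and 237 (-0.74). The light receptor name white collar 1 (Unigene13246) stood at 47.2 and 135 (1.50), and a second gene of that name (Unigene8024) at 40.6 and 29.8 (-0.43).

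**Figure D4:**
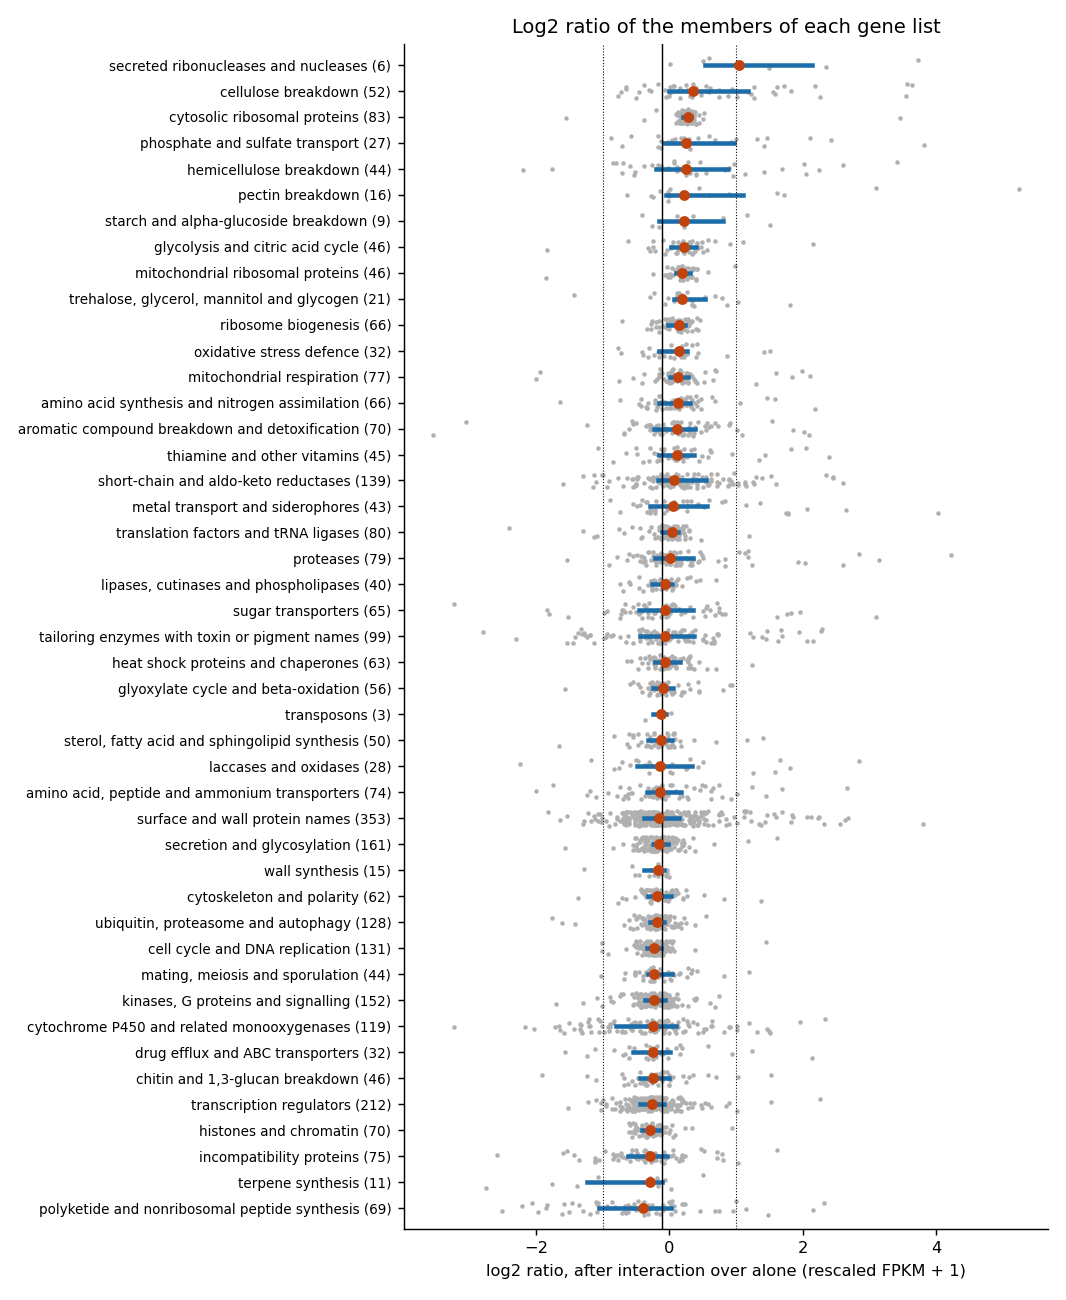
Each row is a gene list with its number of members in brackets; grey points are the log2 ratios of members (x axis), blue bars span the quartiles and red dots mark the median. The solid line is the median of all named genes (-0.11), dotted lines mark 2-fold, and medians run from -0.40 (polyketide and peptide synthesis) to 1.04 (6 nucleases).

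The 40 named genes with the largest ratios, 20 in each direction, were not symmetric in size. The increases ran to 4.23 among genes detected in both libraries, and the 20th, a FLO11 name (CL3187), had 12.1 and 76.2 (2.55). The decreases ran from -3.54 to -1.51, and 3 of the 20 were past 4-fold. Of the 20 increases, 2 belong to no list: an uncharacterized protein name (CL6801) stood at 3.61 and 28.2 (2.66), and the N. crassa name grg-1 (Unigene6517), a gene repressed by glucose in that fungus, stood at 3.39 and 34.0. Among decreases outside the lists were a carrier of the major facilitator type (CL4639) at 124 and 33.8 (-1.84) and the name ASG1 (Unigene7414), a stress regulator of S. cerevisiae, at 31.1 and 8.90 (-1.70). Large in absolute level were a gene named sec31 (Unigene3417) at 351 and 2067 (2.55) and one named verprolin (Unigene5955) at 938 and 2906 (1.63), names of coat and cytoskeleton proteins that proline-rich sequences also draw.

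**Figure D5:**
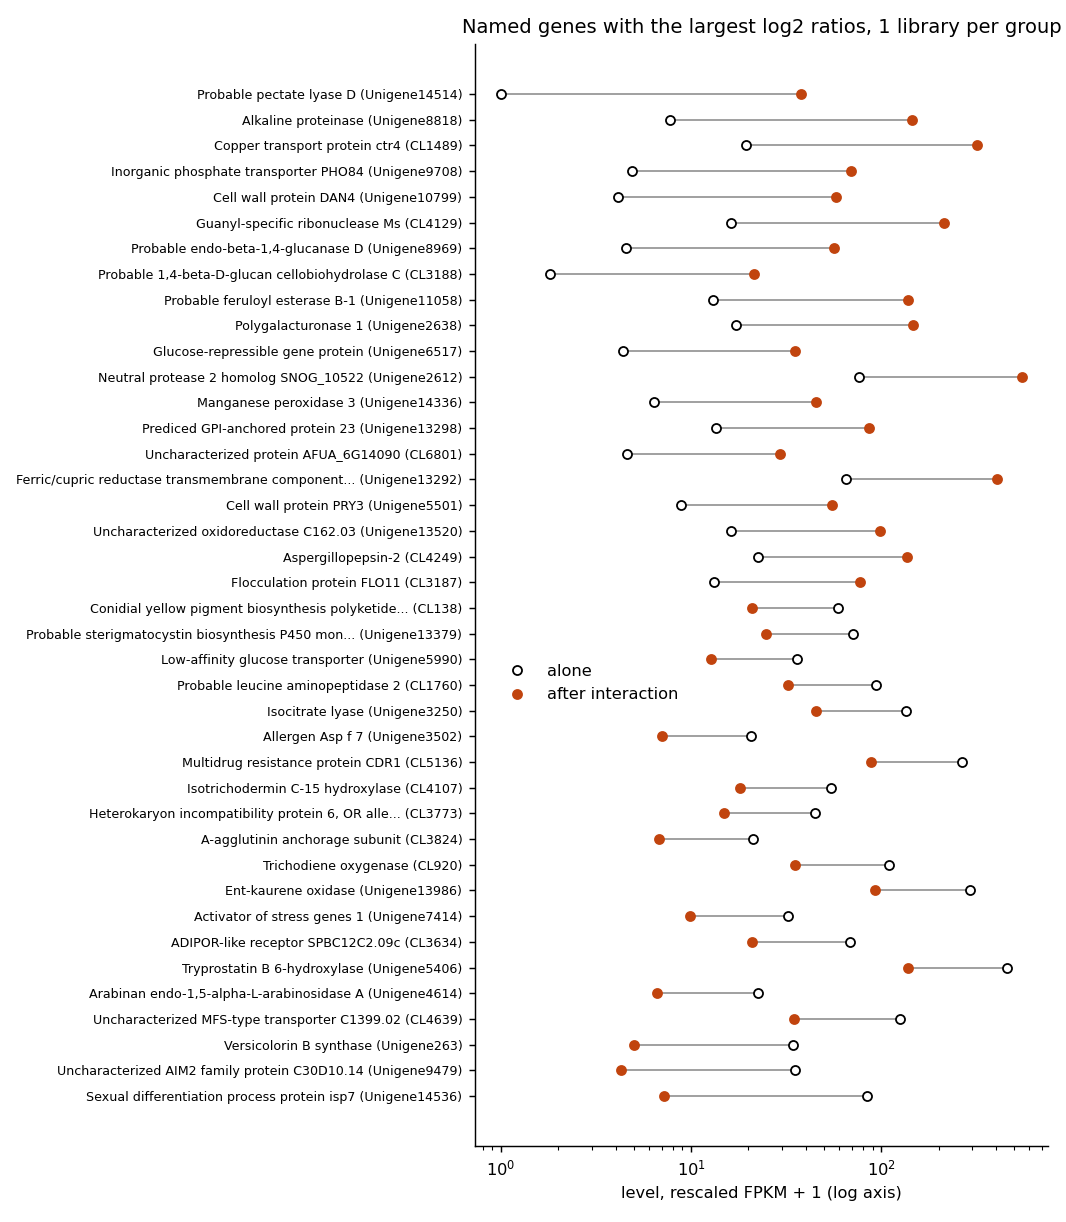
Open circles give the level alone and red circles the level after interaction, in rescaled FPKM + 1 on a log axis, for the 20 largest increases and 20 largest decreases among SwissProt-named genes of at least 10 FPKM in 1 of the libraries, 1 gene per name. Increases include secreted hydrolases, copper and phosphate uptake genes, and decreases include P450, polyketide and transport genes; each circle is 1 library.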

How the data were processed

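RNA of mycelia was extracted with Trizol and made into libraries with standard Illumina protocols, per the labels' protocols. The authors deposited 1 table with an FPKM value per unigene and library and with database hits, per the file headers. Assembler, aligner, counting tool and any pooling of cultures: not given in the sources used here. The table holds 0 value columns that match no library. Values were assigned, rescaled and summed as the report says, with a minimum of 1 FPKM, a 10-fold ratio to the other fungus and a pseudocount of 1 on the rescaled value (Python 3.11.15, pandas 2.3.3). A gene takes the SwissProt name of its most abundant named contig, and 226 named clusters join contigs of more than 1 name. Names are those of the nearest hit (e-value at most 1e-05) and not tested functions.

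The 45 gene lists are search words in SwissProt names. The members, lists and subsets were chosen with earlier results of these data known, and the lists were revised after names and values were seen. Named genes are the 20 largest increases and decreases, 1 per name, among named genes of at least 10 FPKM in 1 library, and from each list the most abundant member and those with the largest increase and decrease. Others, in or outside the lists, were picked after their values were seen, and the text leaves out some. With 1 library per group, counts past 2-fold and 4-fold describe these libraries. The counting of genes past a fold was tested on simulated levels without noise, which checks the calculation alone. Alternatives changed the pseudocount, the minimum, the summing of contigs, the scaling, the assignment to a fungus and the e-value.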

Additional observations from a re-analysis of the deposited data

How the results depend on the processing

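Each count of genes past a fold was recomputed with 11 settings planned earlier and with 2 added after the data were seen, namely genes listed at 0 left out and deposited FPKM with a pseudocount of the same weight. Against 286 genes at least 4-fold higher and 293 lower, the counts were 666 and 673 with a pseudocount of 0.1, 29 and 7 with a pseudocount of 10, 81 and 20 with a minimum of 10 FPKM, 547 and 569 with contigs not summed, 115 and 71 on deposited FPKM with a pseudocount of 1, and 95 and 52 without genes listed at 0. Against 1039 genes at least 2-fold higher and 1104 lower, they were 191 and 107 with a pseudocount of 10, 254 and 173 with a minimum of 10 FPKM, 1847 and 2109 with contigs not summed, and 582 and 610 without genes listed at 0. Assigning unigenes on the library alone left 67 genes 4-fold higher and 333 2-fold higher, and on the library after interaction 25 lower past 4-fold and 304 past 2-fold, since genes at 0 in the assigning library drop out by construction. With a pseudocount of the same weight, deposited FPKM gave 307 and 280 past 4-fold, so the 115 and 71 are not an effect of scaling alone. The other settings left these counts within 1.5 times. The counts past 4-fold therefore rest mostly on genes of low level, while the excess of higher over lower genes at higher levels was present with a pseudocount of 10 and with the minimum of 10 FPKM.

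Of 45 lists, 37 kept their side of the median of all named genes under all 14 settings run, and 8 did not: lipases, laccases and oxidases, sugar transporters, terpene synthesis, tailoring enzymes, glyoxylate cycle and beta-oxidation, sterol synthesis, and transposons. Counts of members past 2-fold were less stable: of 1260 such counts, 338 moved by over 1.5 times, with ranges of 10 to 31 higher and 0 to 10 lower for cellulose, 6 to 22 and 0 to 5 for metals, 1 to 14 and 1 to 26 for polyketides and peptides, and 2 to 22 and 9 to 46 for P450. The sign of the median changed under 5 settings for proteases, 3 for tailoring enzymes, 2 for metals and 1 each for pectin, starch, lipases, oxidases, sugar transporters, chaperones, and the glyoxylate cycle. Single genes were followed for the 148 taken by rule, namely the largest increases and decreases and the members picked from each list by level or ratio. Of these, 67 were past 2-fold, and 13 of the 67 came within 2-fold under at least 1 setting. Other genes given in the text were not followed in this way. The chaperone name JEM1 (CL4179), with 9.18 alone and 23.0 after and a log2 ratio of 1.24, had -0.038 both with contigs not summed and with the most abundant contig of the cluster, which are the same contig. No paired analysis was possible because each condition had 1 library. The depth behind each value is unknown, and with no replicates the spread between cultures cannot be given.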

Other observations

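Genes without a SwissProt name held differences as large as those of named genes. Of 1951 such genes that reached 10 FPKM in 1 library, 236 had no Nr hit. At least 2-fold higher after interaction were 83 of the 1951, and 99 were lower. Among the 5190 named genes at that level, the counts were 160 higher (3.08%) and 78 lower (1.50%). The unnamed genes thus leaned lower past 2-fold, while past 4-fold 24 were higher and 17 lower. The largest ratio belonged to Unigene13444, with no Nr hit, which stood at 1.31 alone and 95.6 after, a log2 ratio of 5.39. CL980, nearest to a hypothetical protein of Fusarium avenaceum, stood at 7.66 and 356 (5.37). A gene nearest to a CFEM-domain protein of Eutypa lata (CL3512), a domain found in surface and heme-binding proteins of fungi, stood at 10.5 and 102 (3.17). On the lower side, Unigene10938, nearest to a hypothetical protein of Aspergillus ruber, stood at 217 and 13.0 (-3.97), and Unigene7920, with no Nr hit, at 708 and 109 (-2.69). A terpene synthase nearest to one of Hypoxylon (Unigene9153) stood at 23.5 and 4.42 (-2.18), and a barwin-like endoglucanase (Unigene2229) at 36.6 and 8.78 (-1.94).

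Outside the lists and chosen after its value was seen, 5-aminolevulinate synthase (Unigene3922), the first enzyme of heme synthesis, stood at 114 and 39.6 (-1.50).

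The nearest Nr genus differed between genes past 4-fold and the rest. Genera of Xylariales, to which A. stygium belongs, were 71.6% of the 9726 genes with an Nr genus, 45.9% of the 135 past 4-fold higher and 23.9% of the 88 past 4-fold lower. Tremellomycete genera were 0.709%, 4.44% and 13.6% of the same sets, and 21.8% of the 252 genes listed at 0 in 1 library that had a genus. Among genes past 4-fold with at least 10 FPKM, 0 of 65 higher and 0 of 16 lower had a Tremellomycete genus.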
